A study of Mus musculus with 48 samples.

Results

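The Tie receptors, the angiopoietins that bind them and the phosphatase that acts on them were described gene by gene and transcript by transcript in single cells of the mouse embryo. The members were chosen by name: *Tek* and *Tie1*, which encode the receptors, *Angpt1* and *Angpt2*, which encode the ligands, and *Ptprb*, which encodes a receptor-type phosphatase. They make up 5 of the 21435 genes in the tables, and 12 of the 52927 transcripts. The annotation used, GENCODE M21, lists 15 transcripts of these genes, and *Tek-201*, *Tek-204* and *Angpt2-202* were not analysed here.

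The study read full-length cDNA of polyA RNA from single cells on a Nanopore PromethION instrument. All 48 cells were from C57 mouse embryos, wild-type and at embryonic day 10, from the aorta-gonads-mesonephros region, where hematopoietic stem cells first form. Cells sorted by FACS stayed on ice until each was picked by hand and lysed with ERCC spike-in RNA present, and the labels give no further treatment. By title, 24 cells are AEC and 24 are HEC, names that in this field commonly stand for arterial and hemogenic endothelial cells. The labels do not spell the names out, the cell type entry of the HEC cells reads hematopoietic stem cells, and the sources used here do not give the gates of the sort. Because animals are not named, a group is 1 sample: no test between the groups was possible, and every SD below is a spread between cells.

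The unit throughout is reads per 10000 reads of the cell. Depth ran from 13261 to 4883854 reads per AEC cell and from 96410 to 8897958 per HEC cell, so that 1 read was worth between 0.00112 and 0.754 of this unit. At least 200000 reads were found in 18 AEC and 23 HEC cells. In group medians the marker genes followed the titles: the summed level of 8 arterial markers had a median of 30.9 in AEC and 3.33 in HEC cells, and that of 8 hemogenic markers 1.07 and 10.2. HEC 7 went against its title, with the highest arterial sum of the HEC cells, 43.0, and the highest endothelial sum, 55.9. Its hemogenic sum was 1.43 and *Runx1*, the defining hemogenic factor, stood at 0.145. Single arterial markers were high in other HEC cells too. HEC 12 held 39.9% of the HEC sum of *Gja5*, HEC 21 41.5% of that of *Sox17* and HEC 18 33.7% of that of *Hey2*. The log2 ratios of *Tek*, *Tie1* and *Ptprb* and the *Tek-202* share are given without HEC 7 too. Correlations, pooled reads and counts of cells include it. Among AEC cells, AEC 6 had the highest hemogenic sum, 7.05, with *Runx1* at 1.41. *Runx1* reached 1 in 4 AEC cells, among them AEC 17 at 1.75, and in 21 HEC cells. In 5 cells, AEC 11, AEC 19, AEC 20, HEC 12 and HEC 20, the endothelial genes *Cdh5* and *Kdr* summed to less than 1, and results are given without these cells where they matter. These 5 cells still held at least 1 read each of *Tek*, *Tie1*, *Angpt1* and *Ptprb*, so a single read was not taken as expression, and shares of cells are given at a level of 1 or more.

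As background, Tek (also called Tie2) is a receptor tyrosine kinase of endothelial and early hematopoietic cells, and Tie1 is a related receptor that binds no angiopoietin with high affinity but pairs with Tek. Angpt1 activates Tek and is made by perivascular and hematopoietic cells among others, whereas Angpt2 is made mainly by endothelial cells and can block or activate Tek depending on the context. Ptprb, known as VE-PTP, removes phosphate from Tek and from the VE-cadherin complex. Mouse embryos that lack Tek or Tie1 die with defects of the blood vessels, and Tek has also been tied to the upkeep of blood stem cells in the bone marrow.

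The sequence on which the transcripts of *Tek* differ comes first, because the transcript shares below turn on it. *Tek* lies on chromosome 4 (mm10, plus strand, 94739289 to 94874976). *Tek-203* has 23 exons and *Tek-202* has 22. The difference within the coding sequence is exon 4 of *Tek-203*, chr4:94799127-94799279, a coding exon of 153 bases that keeps the reading frame and runs from within codon 159 into codon 210. It is shown in capitals with 30 bases of the neighbouring exons, above the same junction in *Tek-202*, where the exon is skipped.
Tek-203: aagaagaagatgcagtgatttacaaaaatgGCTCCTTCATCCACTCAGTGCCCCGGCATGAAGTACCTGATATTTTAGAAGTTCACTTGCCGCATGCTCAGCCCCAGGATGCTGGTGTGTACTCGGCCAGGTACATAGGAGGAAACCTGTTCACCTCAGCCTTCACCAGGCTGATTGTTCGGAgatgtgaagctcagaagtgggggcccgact
Tek-202: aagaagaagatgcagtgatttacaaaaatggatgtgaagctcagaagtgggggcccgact
The transcripts also differ at their ends, where *Tek-202* is 11 bases longer at the 5′ end and 37 bases longer at the 3′ end. A read that stops short of exon 4 cannot tell them apart by the exon, and the sources used here do not say how such reads were divided.

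The promoters of both receptor genes are shown because ETS factors, which bind the core GGAA, are known to act on them. Both are windows of 300 bases around the gene's start in RefSeq (GRCm38.p6), at chr4:94739039-94739338 on the plus strand for *Tek* and at chr4:118489800-118490099 on the minus strand for *Tie1*. Capitals mark GGAA and its reverse complement TTCC.
Tek: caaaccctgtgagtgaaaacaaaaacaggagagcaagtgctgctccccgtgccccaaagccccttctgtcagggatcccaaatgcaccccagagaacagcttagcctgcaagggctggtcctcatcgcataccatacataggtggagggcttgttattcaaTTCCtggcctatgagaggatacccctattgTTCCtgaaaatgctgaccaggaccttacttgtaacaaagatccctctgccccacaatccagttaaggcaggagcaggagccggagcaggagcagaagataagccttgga
Tie1: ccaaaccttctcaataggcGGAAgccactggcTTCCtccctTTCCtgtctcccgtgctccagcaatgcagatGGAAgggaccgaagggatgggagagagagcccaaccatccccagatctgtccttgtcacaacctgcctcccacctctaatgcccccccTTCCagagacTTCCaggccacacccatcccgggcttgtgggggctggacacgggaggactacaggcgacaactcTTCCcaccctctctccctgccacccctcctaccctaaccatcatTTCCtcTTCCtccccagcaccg
The *Tek* window held 2 matches, both TTCC, and 84.6% of the 32851 RefSeq promoter windows held at least as many. The *Tie1* window held 9 matches, 2 GGAA and 7 TTCC, a number reached by 1.59% of the windows. In the annotation used here the main transcript *Tie1-201* starts at chr4:118490061, within this window. Most of the *Tie1* window thus lies inside the span of *Tie1-201* and not upstream of its start. The median window held 3, and 96.0% held at least 1. A match is a description of letters and does not show that a factor binds there. The RefSeq table matched 2 of the 5 members.

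*Tie1* was the member found at a level of 1 or more in the most cells of both groups, and its mean differed between them by less than the spread between cells. In AEC cells it ranged from 0.107 to 8.41 with a median of 2.59, and in HEC cells from 0.563 to 8.40 with a median of 2.45. The groups overlapped over nearly their whole range, and the highest cells, AEC 16 and HEC 7, stood at almost the same level. HEC 7 is the HEC cell with the highest arterial sum. The mean was 3.10 ± 2.58 (SD, n = 24 cells) in AEC and 2.71 ± 1.71 (SD, n = 24 cells) in HEC, a log2 ratio of -0.19, or -0.32 without HEC 7. *Tie1* reached 1 in 18 AEC cells, 75.0% (exact Clopper-Pearson 95% interval 53.3 to 90.2%), and in 22 HEC cells, 91.7% (73.0 to 99.0%). The 3 AEC cells low in *Cdh5* and *Kdr* held between 0.107 and 0.172. The sign of the small difference depended on the measure, since the difference of mean log2(level + 1) was 0.02.

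*Tek* was lower on average in HEC cells, by less than the spread between cells. Its level in AEC cells ran from 0.0886 through a median of 2.07 to 10.03, and in HEC cells from 0.0730 through 1.41 to 6.69. The highest AEC cells were AEC 9 at 10.03, AEC 24 at 8.32 and AEC 16 at 7.33, above every HEC cell, while HEC 7 at 6.69 and HEC 23 at 5.30 stood apart from the other HEC cells. The mean was 2.62 ± 2.68 (SD, n = 24 cells) in AEC and 1.69 ± 1.57 (SD, n = 24 cells) in HEC, a log2 ratio of -0.61, or -0.79 without HEC 7. In both groups 16 cells reached a level of 1, a share of 66.7% (44.7 to 84.4%). The ratio passed 2-fold in 3 of the alternatives: it was -1.05 from pooled reads, -1.02 when the 6 cells per group with the fewest genes were left out, and -1.15 when the cells low in *Cdh5* and *Kdr* were removed as well.

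*Ptprb* showed the largest log2 ratio of means, in size, among the members, though *Angpt1* exceeded it between medians and *Angpt2* with 0.01 added to the means. AEC cells held between 0 and 9.40, with a median of 1.49, and HEC cells between 0.0638 and 5.15, with a median of 0.425. The 5 AEC cells AEC 2, AEC 4, AEC 5, AEC 9 and AEC 16 lay above every HEC cell, and the top HEC cells were again HEC 7 at 5.15 and HEC 23 at 3.53. HEC 7, with its arterial markers, held 24.7% of the HEC sum. Otherwise the groups overlapped. The mean was 2.74 ± 2.97 (SD, n = 24 cells) in AEC and 0.869 ± 1.19 (SD, n = 24 cells) in HEC, a log2 ratio of -1.55, or -1.86 without HEC 7, and the direction held under every alternative, from -0.74 as a difference of mean log2(level + 1) to -2.41 without both sets of doubtful cells. A level of 1 was reached in 13 AEC cells, 54.2% (32.8 to 74.4%), and in 7 HEC cells, 29.2% (12.6 to 51.1%). These intervals overlap. Summed over the cells, 9914 AEC reads gave 4.06 per 10000 (exact Poisson 95% interval 3.98 to 4.14) and 2607 HEC reads gave 0.762 (0.733 to 0.792), intervals that cover counting error only. The summed level of 8 endothelial markers, of which none was missing, was also lower in HEC, 17.02 ± 11.5 (range 5.11 to 55.9) against 34.7 ± 24.9 (range 1.48 to 79.1) in AEC (SD, n = 24 cells each), and its part in the *Ptprb* difference was not tested.

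*Angpt1*, the activating ligand, was the member whose mean was higher in HEC cells. In AEC cells it ranged from 0 to 3.02 with a median of 0.0250, and in HEC cells from 0.0908 to 2.64 with a median of 0.719. All 24 HEC cells lay above the AEC median, and 5 AEC cells lay above the HEC median, namely AEC 7, AEC 10, AEC 13, AEC 17 and AEC 18. Of these, AEC 7 and AEC 17 also had *Runx1* at 1 or more, and AEC 17 held *Angpt1* at 2.28 with 86 reads. The other AEC cells with *Runx1* at 1 or more, AEC 1 and AEC 6, held *Angpt1* at 0 and 0.0629. Spearman's rho between *Angpt1* and *Runx1* was 0.09 in AEC, 0.0087 in HEC and 0.49 over all 48 cells. The mean of *Angpt1* was 0.378 ± 0.775 (SD, n = 24 cells) in AEC and 0.866 ± 0.645 (SD, n = 24 cells) in HEC, a log2 ratio of 1.01. The top AEC value, 3.02 in AEC 7, rests on 4 reads in the shallowest cell, and without that cell the ratio was 1.41. It was 2.71 between the medians, 0.83 without the cells low in *Cdh5* and *Kdr*, 0.65 with median-of-ratios scaling and 0.44 with 1 in place of 0.1 added to the means.

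In numbers of cells, the groups were further apart for *Angpt1* at 0.5 than at 1. At 1 or more there were 3 AEC cells, 12.5% (2.66 to 32.4%), and 8 HEC cells, 33.3% (15.6 to 55.3%), whereas at 0.5 or more there were 5 AEC and 18 HEC cells. After each cell was thinned to 10000 reads, at least 1 read remained in 4 AEC and 13 HEC cells, so the number of cells with *Angpt1* was also larger in HEC at equal numbers of reads. Genes per cell still differed, with medians of 8317 in AEC and 10645 in HEC, and the part of this was not tested. Pooled reads numbered 408 in AEC and 2644 in HEC, or 0.167 (0.151 to 0.184) and 0.773 (0.744 to 0.803) per 10000. The highest HEC cells were HEC 15 at 2.64 and HEC 12 at 1.88, and HEC 12 is a cell low in *Cdh5* and *Kdr*. Of 5 markers of megakaryocytes, which are known to make Angpt1, the integrin gene *Itgb3* alone passed the filter, with means of 0.200 in AEC and 1.74 in HEC, while *Pf4*, *Gp9* and *Gp1ba* had HEC means between 0.0379 and 0.0753. Their summed level, mostly *Itgb3*, ran from 0 to 1.51 (median 0.0603) in AEC and from 0.203 to 3.92 (median 1.95) in HEC, with *Ppbp* not found in any cell. The 4 macrophage markers found of 6 summed to between 0 and 0.754 (median 0.0632) in AEC and between 0.0621 and 3.34 (median 0.794) in HEC, with *Adgre1* and *C1qa* not found. The part of these markers in the *Angpt1* result was not tested.

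*Angpt2*, the ligand that can oppose Angpt1, was near 0 in almost every cell. It was above 0 in 9 AEC and 6 HEC cells, the median was 0 in both groups, and the highest HEC cell held 0.0414. AEC 11 alone stood at 1.24, with 267 of the 285 AEC reads, against 11 reads in all HEC cells together. The log2 ratio was -0.60 with AEC 11 and -0.03 without it, and the gene did not pass the filter on low levels. AEC 11 is a cell low in *Cdh5* and *Kdr*: its 8 endothelial markers summed to 1.85 against an AEC median of 29.8, and its 10 mesenchymal and perivascular markers to 45.9 against an AEC median of 0.720. AEC 19, also low in *Cdh5* and *Kdr*, had the highest mesenchymal and perivascular sum of the AEC cells, 86.7, with *Angpt2* at 0.0397. The part of these markers in the *Angpt2* result was not tested. At a level of 1 or more *Angpt2* was found in 0 of 24 HEC cells, which allows a share of up to 14.2% (Clopper-Pearson).

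**Figure D1:**
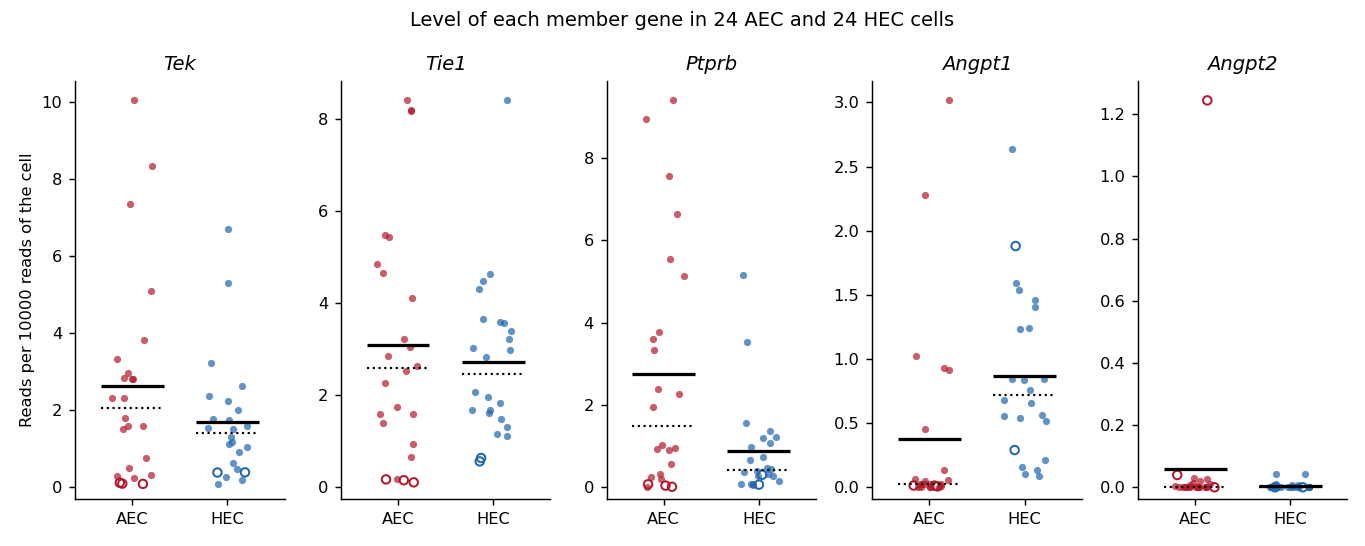
Level of each member gene in every cell, in reads per 10000 reads of the cell on linear axes that differ between panels, for 24 AEC cells (red) and 24 HEC cells (blue). Solid lines are means, dotted lines are medians and open circles are the 5 cells low in *Cdh5* and *Kdr*; *Tie1* overlaps almost fully, *Ptprb* has 5 AEC cells above all HEC cells, and 1 open AEC cell holds nearly all *Angpt2*.

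Ordered by level per kilobase of transcript, *Tie1* came first in both groups, at 0.771 reads per 10000 per kilobase in AEC and 0.675 in HEC, followed by *Tek* at 0.575 and 0.370. Per kilobase, *Ptprb* and *Angpt1* came in opposite order in the groups, with *Ptprb* at 0.238 and *Angpt1* at 0.0902 in AEC, and *Angpt1* at 0.206 and *Ptprb* at 0.0755 in HEC. Reads of full-length cDNA do not call for division by length, since 1 read can stand for a whole transcript. In undivided means, *Ptprb* was above *Angpt1* in both groups, by 0.869 against 0.866 in HEC, and above *Tek* in AEC. Undivided medians and pooled reads also put *Ptprb* and *Angpt1* in opposite order in the groups. In HEC, *Angpt1* had a median of 0.719 against 0.425 for *Ptprb*, and 0.773 against 0.762 in pooled reads. In AEC the medians were 0.0250 and 1.49, and the pooled values 0.167 and 4.06. The order in HEC thus depends on the measure. Per kilobase, *Angpt2* was last in both groups, at 0.0163 and 0.00128. The neighbours *Tie1* and *Tek* overlapped across cells in each group, as did *Ptprb* and *Angpt1*.

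Against all genes the members spread to both sides. Of 8678 genes that passed the filter on low levels, 6.36% were at least 2-fold higher in HEC and 9.24% at least 2-fold lower, with a median log2 ratio of 0.04. Of the 4 members that passed, *Angpt1* was past 2-fold on the higher side and *Ptprb* on the lower side. Median-of-ratios scaling shifted the median of all genes by -0.23. Relative to that shift the log2 ratios were -0.65 for *Tek*, -0.32 for *Tie1*, 0.88 for *Angpt1* and -1.51 for *Ptprb*.

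The transcripts of *Tek* were used in different proportions. *Tek-202*, which skips exon 4, had a mean level of 2.48 in AEC and 1.34 in HEC, and *Tek-203*, which holds it, 0.139 in AEC and 0.348 in HEC. *Tek-203* thus made up 5.31% of the summed *Tek* level in AEC and 20.6% in HEC. In pooled reads these were 498 of 7026 reads, 7.09% (Clopper-Pearson 95% interval 6.50 to 7.71%), and 1111 of 4560 reads, 24.4% (23.1 to 25.6%), counting error only.

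The share of *Tek-203* varied widely between cells. Among the 17 AEC cells with at least 10 reads of *Tek*, 11 had no read of *Tek-203* and 3 had at least 10% of it, the highest being AEC 3 at 40.5% (244 of 602 reads). Among the 23 such HEC cells, 8 had none and 10 had at least 10%, and HEC 12 had it in 14 of 14 reads. The mean share per cell was 4.97 ± 11.6% (SD, n = 17 cells) in AEC and 20.3 ± 26.2% (SD, n = 23 cells) in HEC, a difference smaller than the SD of the HEC cells. Cells rich in *Tek* reads were found at both ends: AEC 16 had 0 of 1455 reads on *Tek-203* and HEC 18 had 0 of 497, while HEC 1 had 403 of 930 and HEC 7 had 145 of 323. Without HEC 7, *Tek-202* took 84.2% of *Tek* in HEC, against 79.4% with it. A transcript share that differed by at least 10 percentage points was common, at 38.5% of 2201 genes. These had 2 or more transcripts, group means of 0.5 or higher and levels above 0 in 12 or more cells per group, and *Tek*, with 15.3 points, was the member past that mark. *Angpt1* and *Angpt2* were below the minimum level. *Tie1* differed by 8.71 points and *Ptprb* by 5.34.

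*Tie1* lies on the minus strand of chromosome 4 (118471191 to 118490061, mm10). *Tie1-201*, the transcript of 23 exons with the full coding sequence, took 89.7% of the gene in AEC and 98.4% in HEC. The second transcript, *Tie1-202*, is annotated as a processed transcript without coding sequence that has 14 exons and ends 366 bases into the next intron. The point of difference, chr4:118478368-118478427, is shown with the intron bases in capitals, above the splice junction of *Tie1-201* at the same exon end.
Tie1-202: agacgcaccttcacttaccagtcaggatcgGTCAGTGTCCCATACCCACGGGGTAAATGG
Tie1-201: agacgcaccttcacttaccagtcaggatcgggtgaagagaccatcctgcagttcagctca
*Tie1-202* held 474 reads in 15 AEC cells and 257 reads in 12 HEC cells, or 9.45% and 1.54% of the summed level. In pooled reads, which weight deep cells more, the shares were closer, 5.54% (5.07 to 6.05%) and 3.08% (2.72 to 3.47%). Of cells with at least 10 reads of *Tie1*, 4 of 19 AEC cells and 1 of 24 HEC cells had at least 10% of them on *Tie1-202*. The highest were AEC 22 with 54 of 108 reads and HEC 20, a cell low in *Cdh5* and *Kdr*, with 65 of 122. *Tie1-203* is a protein-coding transcript with a shorter coding sequence than *Tie1-201*, 1941 against 3402 bases. It had 119 reads in 2 AEC cells and 7 reads in 2 HEC cells.

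*Ptprb* lies on the plus strand of chromosome 10 (116275523 to 116389535, mm10). *Ptprb-201* took 91.7% of the gene in AEC and 95.4% in HEC. *Ptprb-203* starts 25822 bases upstream of it and ends 5529 bases short of it, and its coding sequence opens in another exon. Both openings are shown from the start codon, in capitals, to the end of that exon, at chr10:116301626-116301679 and chr10:116275577-116275631.
Ptprb-201: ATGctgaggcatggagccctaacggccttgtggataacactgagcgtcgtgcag
Ptprb-203: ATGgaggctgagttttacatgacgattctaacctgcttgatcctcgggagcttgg
*Ptprb-203* held 626 reads in 6 AEC cells and 94 reads in 5 HEC cells, or 8.17% and 2.83% of the summed level. It was present in few cells and high there: AEC 15 had it in 101 of 153 *Ptprb* reads and AEC 23 in 17 of 25, while AEC 5, with 2712 reads of the gene, had none. *Ptprb-202*, a retained intron, and *Ptprb-204*, a processed transcript, held 30 and 29 reads in HEC and 1 and 6 in AEC. In HEC the reads of each came from 2 cells, and HEC 2 held 20 and 27 of them.

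The ligand genes showed mostly 1 transcript. *Angpt1*, on the minus strand of chromosome 15 (42424723 to 42676977, mm10), was *Angpt1-201* in 100% of AEC reads and 96.6% of the summed HEC level. *Angpt1-202*, a processed transcript of 2 exons, had 29 reads in 4 HEC cells, and HEC 7 held 70.7% of its summed level. *Angpt2*, on the minus strand of chromosome 8 (18690263 to 18741562, mm10), was *Angpt2-201* in every read.

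**Figure D2:**
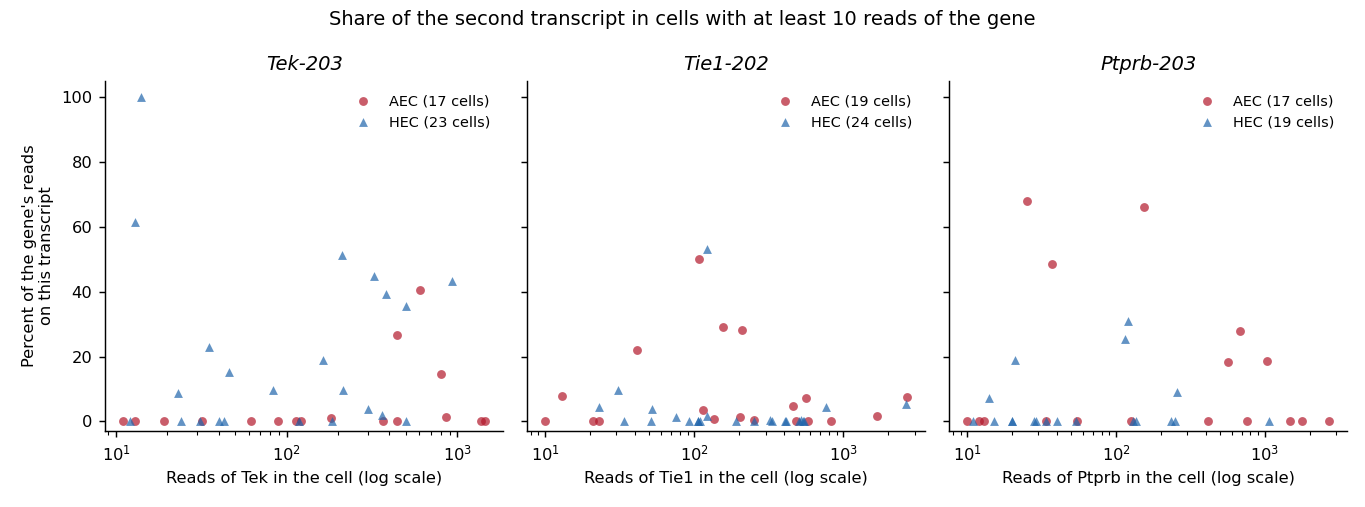
Percent of a gene's reads on *Tek-203*, *Tie1-202* and *Ptprb-203* (vertical axis) against the reads of the gene in the cell (horizontal axis, log scale), for cells with at least 10 reads of the gene, AEC as red circles and HEC as blue triangles. For *Tek-203*, 10 of 23 HEC cells and 3 of 17 AEC cells lie at 10% or more, and cells with none occur at high and low read numbers.

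The receptor genes and *Ptprb* tended to be high in the same cells. All 3 were at 1 or more in 9 AEC and 7 HEC cells, and none of them in 4 AEC and 2 HEC cells. In HEC, each of the 7 cells with *Ptprb* at 1 or more also had *Tek*, *Tie1* and *Cdh5* at 1 or more. Over all 24 HEC cells, *Tek* reached 1 in 16 and *Tie1* in 22. Spearman's rho between *Tek* and *Ptprb* was 0.57 over the 24 AEC cells and 0.66 over the 24 HEC cells, that between *Tie1* and *Ptprb* 0.68 and 0.43, and that between *Tek* and *Tie1* 0.35 and 0.58. With the endothelial gene *Cdh5*, rho in AEC and HEC was 0.66 and 0.61 for *Tek*, 0.49 and 0.67 for *Tie1*, and 0.46 and 0.72 for *Ptprb*. The shared pattern was thus not particular to these 3 genes. The cells of a group share a sample and values scaled to depth, so the coefficients are descriptions and carry no p. With the depth of the cell the rho over 48 cells was 0.01 for *Tek*, -0.03 for *Tie1*, -0.08 for *Angpt1*, 0.08 for *Ptprb*, and 0.39 for *Angpt2*.

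Exceptions to the shared pattern were large. AEC 24 held *Tek* at 8.32 and *Tie1* at 0.187, and AEC 2 held *Tek* at 0.319 with *Tie1* at 8.20 and *Ptprb* at 7.55. *Angpt1* at 1 or more was found together with *Tek* or *Tie1* at 1 or more in all 3 such AEC cells and in 7 of 8 such HEC cells. Over all 24 cells of each group, *Tek* and *Tie1* were both under 1 in 4 AEC and 2 HEC cells. Most cells thus had *Tek* or *Tie1* at 1 or more whatever their *Angpt1*, so these counts say little about *Angpt1*. In HEC cells *Angpt1* was lower where *Cdh5*, the gene of VE-cadherin, was higher, with a rho of -0.51, against -0.05 in AEC cells. The difference between these coefficients was not tested.

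**Figure D3:**
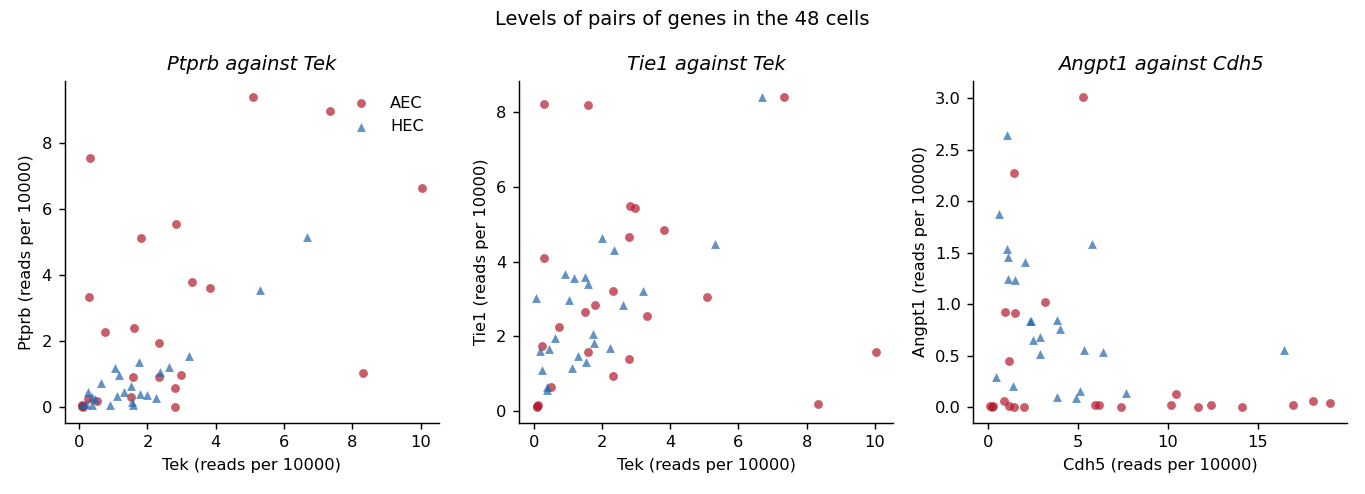
Levels of *Ptprb* against *Tek*, *Tie1* against *Tek*, and *Angpt1* against *Cdh5* in the 48 cells, in reads per 10000 reads of the cell on linear axes, AEC as red circles and HEC as blue triangles. High *Ptprb* in HEC cells is found with high *Tek*, as in HEC 7 and HEC 23, AEC 24 and AEC 2 lie off the *Tek* and *Tie1* trend, and the HEC cells high in *Angpt1* are mostly low in *Cdh5*.

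Genes whose levels followed each member most closely were sought by Spearman's rho over the 48 cells, among 1486 genes whose mean reached 1. For *Tek* these were *Col18a1* at 0.80, *Cd93* at 0.78, *Vwf* at 0.75, *Nos3* at 0.71 and *Calcrl* at 0.70, and the lowest rho of any of them within a group was 0.58. *Vwf* encodes von Willebrand factor and *Nos3* the endothelial nitric oxide synthase. For *Tie1* the leading genes were *Flt1* at 0.66, a VEGF receptor gene, *Ramp2* at 0.62, *Ptprb* at 0.60, *Ctsh* at 0.59 and *Eng* at 0.59. For *Ptprb* they were *Cemip2* at 0.81, *Flt1* at 0.77, *Gja4* at 0.75, which encodes a connexin of arterial endothelium, *Mmrn2* at 0.74 and *Pecam1* at 0.73. Each of these was lower within HEC than within AEC cells, most of all *Flt1*, at 0.45 against 0.83, and *Gja4*, at 0.41 against 0.81. For *Angpt1* they were *Adgrg1* at 0.70, *Spi1* at 0.68, which encodes the blood cell factor PU.1, *Itga4* at 0.66, *Hspa1b* at 0.64 and *Coro1a* at 0.64. Within the groups the coefficients with *Angpt1* were lower, at 0.34 in AEC and 0.41 in HEC for *Spi1*. All 48 cells share the scaling to total reads, and these coefficients are descriptions over cells of 2 samples.

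Other endothelial receptor genes gave the nearest comparison for *Tek* and *Tie1*. Of 10 such genes, 8 were at least 2-fold lower in HEC and 0 higher, with a median log2 ratio of -1.73. The 4 with the largest ratios were *Notch4* at -1.98, *Notch1* at -1.94, *Flt4*, a receptor for VEGF-C, at -1.94, and *Acvrl1*, the receptor ALK1, at -1.89. *Nrp2*, also past 2-fold, was at -0.43 without AEC 7. *Eng*, the nearest of them to 0 with all cells, had -0.78, and -0.45 without AEC 1, set beside -0.61 for *Tek* and -0.19 for *Tie1*. With all cells, *Tek* and *Tie1* thus lay outside the range of this list, on the side of the smaller differences. When 1 cell was left out, *Tek* ran from -0.79 to -0.42, which overlaps the values of *Eng* and *Nrp2*. The genes of the list are not given under the alternatives in which *Tek* passed 2-fold, so those are not compared. Whether the receptor genes differ from these was not tested, since each group is 1 sample.

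Of 20 receptor-type tyrosine phosphatase genes, 8 passed the filter, *Ptprb* among them, and 4 were at least 2-fold lower and 1 at least 2-fold higher in HEC. *Ptprm*, whose product sits at cell contacts, had a log2 ratio of -1.74, *Ptprg* -1.11 and *Ptpre* 1.57. The *Ptprg* value became -0.50 without AEC 22, which held 47.7% of the AEC sum, and *Ptprf*, the fourth lower gene, became -0.66 without AEC 14. The median of the list was -0.79.

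The genes that carry the signal inside the cell were closer to the background. Of 23 adaptor and relay genes of Tek, 19 passed the filter, 2 were at least 2-fold higher in HEC and 0 lower, and the median log2 ratio was 0.17. With median-of-ratios scaling 2 were higher and 2 lower. *Dok2*, an adaptor that binds phosphorylated Tek, had means of 0.180 ± 0.372 in AEC and 0.712 ± 0.602 in HEC (SD, n = 24 cells each), a log2 ratio of 1.53. *Pik3cb*, a catalytic subunit of PI 3-kinase, had 1.59, with 41.3% of the HEC sum in HEC 17 and 1.14 without that cell. *Rhoa*, a small GTPase, had 0.95 and *Shc1*, another adaptor, -0.94.

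Genes of receptor cleavage and of partners at the membrane had 1 of 8 past 2-fold, lower in HEC, and 3 with median-of-ratios scaling. That gene, *Ncstn*, a subunit of gamma-secretase, had -1.98, but AEC 7 held 74.6% of its AEC sum and the ratio without that cell was -0.21. *Cdh5* had -0.80, *Mmp14*, a membrane protease, -0.75 and *Itga5*, an integrin subunit, -0.63. The median of the list was -0.43.

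Transcription factors known to act on *Tek*, *Tie1* or *Angpt2* lay on both sides, with 3 of 17 at least 2-fold higher in HEC and 5 lower, or 1 higher and 6 lower with median-of-ratios scaling. *Elf1*, an ETS factor, had means of 0.200 ± 0.392 in AEC and 0.798 ± 0.582 in HEC, a log2 ratio of 1.58. *Epas1*, the hypoxia factor HIF-2 alpha, had 2.75 ± 2.70 and 0.533 ± 0.695, a log2 ratio of -2.17. *Foxc2* had -2.04. *Hif1a* had -2.18, but AEC 1, with 70.4% of the AEC sum, set this value, and the ratio without it was -0.55. *Foxc1* and *Nr2f2*, the other lower genes, were at -0.84 without AEC 12 and at -0.81 without AEC 11. The median of the list was 0.08.

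None of the other ligand genes passed the filter. Of 8 genes, *Angpt4*, *Svep1* and 6 angiopoietin-like genes, 6 had a transcript above 0 in some cell, and their summed level had a median of 0.0237 in AEC and 0.139 in HEC.

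**Figure D4:**
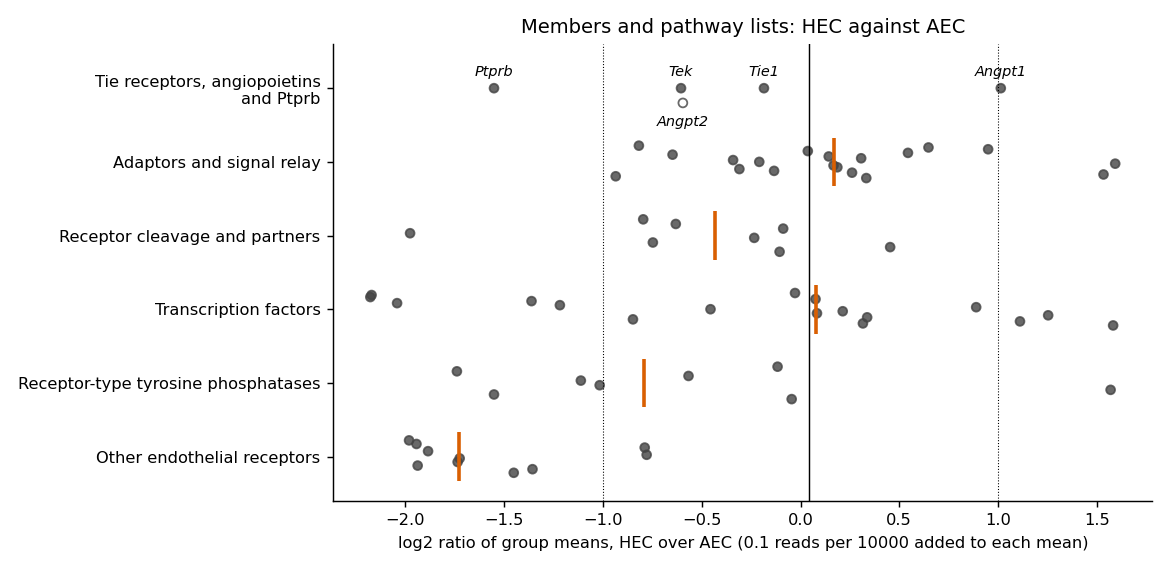
Log2 ratio of the HEC mean over the AEC mean, with 0.1 added to each, for the 5 members and for the genes of 5 pathway lists that passed the filter on low levels. Each point is a gene, *Angpt2* is open because it did not pass the filter, orange bars are list medians, the solid line is the median of all genes at 0.04, dotted lines mark 2-fold, and *Ptprb* is shown in its list too; with all cells included the other endothelial receptors lie between -1.98 and -0.78, an order that single cells can change.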

How the data were processed

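The tables the authors deposited give, for each of 48 cells, a signal per transcript: its reads per 10000 reads of that cell, made with minimap2 2.18-r1015, Salmon 1.1.0 and mm10 per the submitters' processing notes. The sources used here do not name the annotation release. Dividing each cell's values by its smallest nonzero value gave whole numbers, to 0.01, in 100% of cases, and these were taken as reads. Transcripts were matched to GENCODE M21 (52799 of 52927), and the 128 others were left out. Values were summed per gene. No pair of cells was identical.

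Groups follow the titles. The log2 ratio is that of the group means, each with 0.1 added. The filter kept genes with a mean of at least 0.1 that were above 0 in at least 12 cells. A gene counts as called at 2-fold or more. Transcript shares are percents of the gene's summed level in a group, and per cell need 10 reads of the gene. Thinning drew 10000 reads per cell. Intervals treat cells or reads as independent.

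The text names the 5 members with all their transcripts, up to 4 genes of each list by size of ratio, 5 genes most like each member, and markers. *Eng*, *Nrp2*, *Ptprf*, *Foxc1* and *Nr2f2* were named after their values were seen. The members and lists were chosen with earlier results of these data known. The ratio and call rule were tested on simulated data. Tables were computed with pandas 2.3.3 and numpy 2.4.6, intervals with scipy 1.17.1 and plots with matplotlib 3.10.9, under Python 3.11.15.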

Additional observations from a re-analysis of the deposited data

How the results depend on the processing

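The log2 ratios of *Tek*, *Angpt1* and *Ptprb* kept their sign under every alternative, as did that of *Tie1* except for the difference of mean log2(level + 1). For *Angpt1*, the ratio of medians was 2.71, and at a level of 0.5 the share of HEC cells was 75.0%. At that level the share of HEC cells with *Tie1* was 100%. After thinning, 75.0% of AEC cells had a read of *Ptprb*. For *Angpt2* the log2 ratio was -2.22 with 0.01 added to the means, 0 between medians, -0.0022 without the cells low in *Cdh5* and *Kdr*, -0.040 without these and the cells with the fewest genes, and between -0.62 and -0.025 when 1 cell was left out; AEC 11 sets the value. With median-of-ratios scaling, 287 genes were at least 2-fold higher in HEC and 1262 lower, against 552 and 802; the cause was not tested.

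No paired analysis was possible because the result comes from no test: the labels name no animals, so each group is 1 sample. AEC cells reach lower depths than HEC cells, and at 13261 reads a single read equals 0.754 per 10000, so the absence of *Angpt1* or *Angpt2* from a shallow cell is not evidence of absence. How reads shared by transcripts were divided is unknown here.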
